A study of Mus musculus with 6 samples.

Results

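A set of 8 genes that govern how long inflammatory mRNAs last was followed in *cGAS*-/- neutrophils with and without lipopolysaccharide (LPS). The 8 genes were listed by symbol for their known roles, with earlier results of these data already at hand, and were found among 38739 genes in the expression table. They were *Zfp36* and *Zfp36l1*, *Zc3h12a* and *Zc3h12c*, *Rc3h1* and *Rc3h2*, *Elavl1* and *Tia1*. Each of the 8 was detected, and so all were part of the 23049 genes tested, those not at 0 throughout. Bulk RNA was sequenced from 3 untreated and 3 LPS-treated samples of peritoneal neutrophils. According to the labels the mice were of the C57B/L6 strain and lacked *cGAS*, the sensor of cytosolic DNA, so every sample in both groups carried this deletion. No wild-type sample was analysed here, and no result below bears on the deletion itself. The study's methods describe 8-week-old male mice, given thioglycollate into the peritoneum and lavaged 2 h later. The treated cells received LPS for 2 h, at 500 ng/mL in the labels, whereas the methods text gives a lower dose. No source used here says whether the 3 samples of a group came from separate animals or cultures, so p-values measure only the spread between these samples, which may be technical.

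Inflammatory mRNAs are short-lived by design. Many cytokine mRNAs carry AU-rich elements in the 3′ untranslated region (UTR), which recruit proteins that either strip the poly(A) tail and send the mRNA to decay or shield it. Others carry stem loops that are cleaved by regnase nucleases or bound by roquins. Several of these regulators are themselves induced by the Toll-like receptor signals that induce the cytokines, and they then limit the response.

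The deposited values, described as counts but not whole, were read here as TPM (transcript abundances corrected for length and depth), scaled and summarised per gene. They carry no read counts, so the depth behind each value is unknown. The scaled values of a sample summed to between 603599 and 713384 in the untreated samples and to between 404675 and 465904 in the LPS samples. Protein-coding genes held 21.6 to 29.0% of that sum in untreated and 50.6 to 60.0% in LPS samples, and this shift lies under every comparison below. Pseudogenes held 64.7 to 70.7% in untreated and 32.3 to 40.5% in LPS samples. These are shares of the listed values, which are averaged over transcripts as described below, and not shares of RNA. *Cgas*, the deleted gene, was at 0.18 to 0.307 scaled TPM in untreated and 0.0286 to 0.184 in LPS samples, and no wild-type level was at hand for comparison. The neutrophil markers were present in all 6 samples, with summed scaled TPM of 10880, 30250 and 10500 in untreated replicates 1, 2 and 3 and 20880, 57740 and 18360 in LPS replicates 1, 2 and 3. *S100a8* and *S100a9* made up 78.6 to 84.0% of these sums. Of the 15 neutrophil markers measured, *Cxcr2* alone passed the study's limits, being lower with LPS, at 39.4, 119.9 and 100.2 in untreated and 7.10, 23.6 and 8.70 in LPS samples. Markers of B cells were also present, at 2054, 644.5 and 1531 in untreated and 3151, 877.3 and 2508 in LPS samples. Replicate 2 of both groups thus stood apart, with the highest neutrophil marker sum and the lowest B cell marker sum of its group. Of 17 listed markers of monocytes and macrophages, 11 were in the expression table, each above 0 in at least 1 sample. They summed to 172.3 to 207.5 in untreated and 275.4 to 418.7 in LPS samples. Most of these sums was *Cd68*, at 178.9, 157.1 and 161.9 in untreated and 303, 381.5 and 229.9 in LPS samples. The others went both ways, *Ccr2* being lower in all LPS samples than in any untreated one and *C1qb* higher. Markers of T cells summed to 41.0 to 148.2 in untreated and 13.3 to 52.2 in LPS samples. In bulk RNA, fewer cells of a type and less RNA per cell cannot be told apart.

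*Zc3h12a* encodes regnase-1, the nuclease that cleaves *Il6* and other cytokine mRNAs at stem loops in their 3′ UTRs. Its scaled TPM were 14.7, 37.8 and 40.1 in untreated replicates 1, 2 and 3 and 190.1, 294.7 and 244.6 in LPS replicates 1, 2 and 3. Every LPS sample was far above every untreated sample, the lowest LPS value being 4.75 times the highest untreated one. The mean went from 30.87 ± 14.04 to 243.2 ± 52.31 (SD, n = 3 each), a ratio of means of 7.88. In limma on log2(scaled TPM + 1), the log2 fold change was 3.04 with an SE of 0.46, a 95% interval of 1.91 to 4.16, an unadjusted p of 0.00055 and a Benjamini-Hochberg adjusted p of 0.04. Throughout, a log2 fold change is LPS minus untreated on this scale, where the added 1 shrinks differences between low values. *Zc3h12a* was the 1 gene of the 8 that rose by the limits of the study's methods, an unadjusted p under 0.01 with a log2 fold change over 2, which 1.69% of all tested genes, and 4.91% of protein-coding genes with a mean of at least 1, passed as higher. It was also the only one of the 8 with an adjusted p under 0.05, which 0.894% of tested genes reached as higher. None of the 8 was lower by these limits, which 1.31% of genes passed as lower. The balance of these calls over all genes depended on the scaling, with 389 higher and 301 lower as tested, 221 and 516 with equal sums over protein-coding genes and 1552 and 177 under voom. *Zc3h12a* stayed past the study's limits when any one library was left out. Its adjusted p was 0.049 without untreated replicate 1, 0.056 without untreated replicate 2 and 0.07 without untreated replicate 3. It was 0.15, 0.087 and 0.17 without LPS replicates 1, 2 and 3.

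The *Zc3h12a* mRNA carries the kind of structure its own product cleaves. The gene lies at chr4:125012216-125021711 on the minus strand (GRCm39, GENCODE M39). Its 856-base 3′ UTR held 3 perfect stem loops, defined as a stem of 5 base pairs around a loop of 3 bases reading pyrimidine-purine-pyrimidine. They are shown because this is the loop form known for regnase-1 and roquin targets, with the loop in capitals and positions counted from the first base of the 3′ UTR.
Zc3h12a 3′ UTR bases 197 to 209: atacaCATtgtat
Zc3h12a 3′ UTR bases 379 to 391: ggcacCATgtgcc
Zc3h12a 3′ UTR bases 603 to 615: ttaaaTATtttaa
Of 2572 genes with a 3′ UTR of similar length (0.8 to 1.25 times), 15.6% held at least 1 such loop and 0.194% held 3 or more. A match to letters is a description and does not show that a loop forms or is cut. The same 3′ UTR held no TATTTAT, the core AU-rich heptamer, which 29.4% of 20838 genes hold in theirs.

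The bases before the start of *Zc3h12a* are shown because it is the gene of the 8 that rose. They lie at chr4:125127919-125128131 on the minus strand (RefSeq, GRCm38.p6), printed 5′ to 3′.
Zc3h12a upstream: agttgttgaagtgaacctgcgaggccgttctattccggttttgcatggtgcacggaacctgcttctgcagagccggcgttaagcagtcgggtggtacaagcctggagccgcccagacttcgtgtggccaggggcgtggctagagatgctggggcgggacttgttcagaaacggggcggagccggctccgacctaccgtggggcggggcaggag
The window searched, from 250 bases before to 50 after the start, held none of the 4 motifs searched on both strands, namely the NF-κB motif, the AP-1 motif TGANTCA, the cAMP response element TGACGTCA and the CArG box of serum response factor. Of 32851 such windows, 8.46% held the NF-κB motif, 7.81% the AP-1 motif, 1.79% the cAMP response element and 1.63% the CArG box. The absence says only that these letters are not in this window.

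*Zc3h12c* encodes regnase-3, a nuclease of the same family (chr9:52020873-52080106, minus strand, GRCm39). Its scaled TPM were 1.73, 17.2 and 5.34 in untreated and 28.2, 27.7 and 28.2 in LPS replicates 1, 2 and 3. The 3 LPS samples were nearly equal and all above the untreated ones, which were spread over a range of 9.97-fold. The means were 8.10 ± 8.10 and 28.0 ± 0.297 (SD, n = 3 each). The log2 fold change was 2.09 (SE 0.69, 95% interval 0.41 to 3.78), with an unadjusted p of 0.023 and an adjusted p of 0.20 in limma, so that it passed neither limit. One library carried this outcome, since without untreated replicate 2 the log2 fold change was 2.80 with an unadjusted p of 0.0013 and an adjusted p of 0.054, past the study's limits. RefSeq gave *Zc3h12c* a pair of promoter windows. The upstream one held 1 match to the NF-κB motif, at positions -236 to -227 from the start, on the strand opposite to the gene. The other window held none. The match is printed in capitals with 10 bases on each side.
Zc3h12c NF-κB motif: gcggcatgggGGAGCGTCCCgctcggcccg
Its 3′ UTR of 5833 bases held 1 stem loop of the form described, tgaacCATgttca at bases 1924 to 1936, where 65% of genes with a 3′ UTR of similar length held at least 1.

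**Figure D1:**
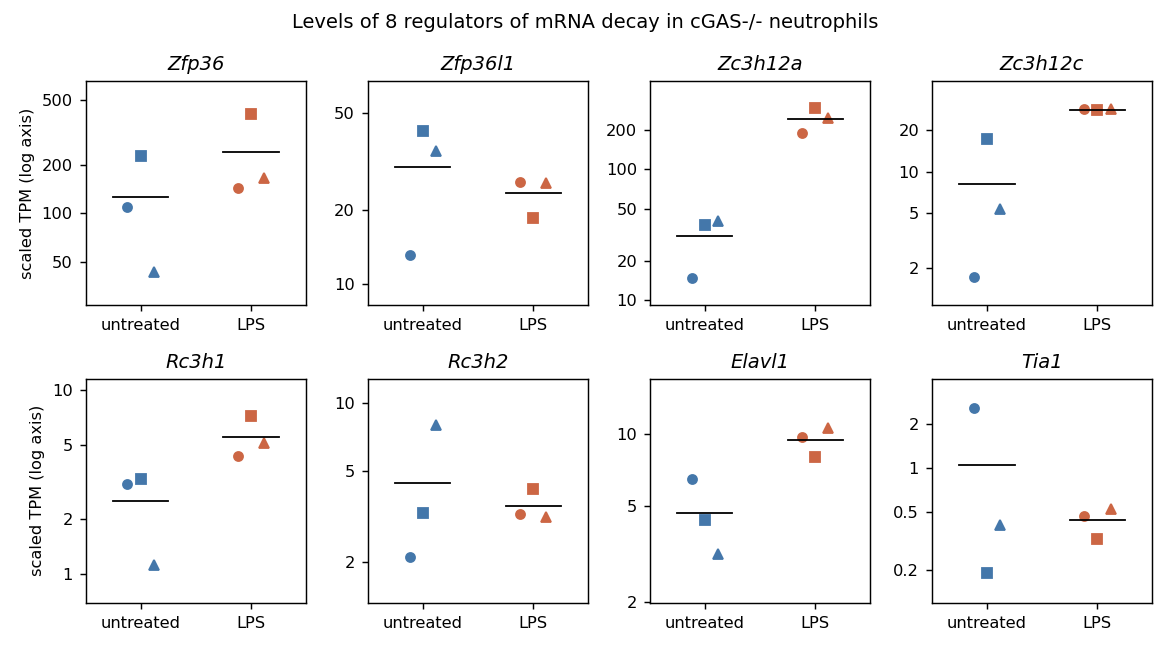
Scaled TPM (log axis) of each of the 8 genes in the 3 untreated (blue) and 3 LPS-treated (orange) samples, with circle, square and triangle for replicates 1, 2 and 3 and a line at the group mean. The groups do not overlap for *Zc3h12a*, *Zc3h12c*, *Rc3h1* and *Elavl1*, and the square lies highest in both groups for *Zfp36*.

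*Zfp36* encodes tristetraprolin, which binds AU-rich elements and recruits the deadenylase complex. It lies at chr7:28076209-28079710 on the minus strand (GRCm39). Its scaled TPM were 109.1, 224.9 and 43.1 in untreated and 142.5, 410.6 and 166.2 in LPS replicates 1, 2 and 3. The groups overlapped, because untreated replicate 2 was above LPS replicates 1 and 3. The means were 125.7 ± 92.0 and 239.7 ± 148.4 (SD, n = 3 each). In limma this gave a log2 fold change of 1.06 (SE 0.71), and its 95% interval of -0.69 to 2.80 included both no difference and a large increase (adjusted p = 0.52). A response of *Zfp36* to LPS was therefore not detectable in this comparison. The p-values, but not the call, depended on the model and scaling. With replicate number as a block in limma, the unadjusted p was 0.047 and the adjusted p 0.33. Under voom they were 0.024 and 0.056, where 40.8% of all genes had an adjusted p under 0.05. Voom gave a log2 fold change of 1.69, with a median of 0.67 over all tested genes against 0.01 in the main comparison. *Zfp36* passed no limit under either model.

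*Zfp36* was highest in replicate 2 of each group, where the neutrophil marker sum was highest and the B cell marker sum lowest. *S100a8*, which encodes an abundant calcium-binding protein of neutrophils, had scaled TPM of 3909, 8405 and 2086 in untreated and 6300, 19850 and 5536 in LPS replicates 1, 2 and 3. The order of the untreated samples was the same for both genes, and that of the LPS samples was not. The log2 ratio of *Zfp36* to *S100a8* was -5.16, -5.22 and -5.60 in untreated and -5.47, -5.60 and -5.06 in LPS samples. *S100a8* was among the genes closest to the *Zfp36* profile of all those compared, so a steady ratio follows from that closeness. Other neutrophil markers went both ways. Log2 fold changes were -2.67 for *Cxcr2* and -0.97 for *Csf3r*, but 3.02 for *Lcn2* and 1.44 for *Clec4d*. The mean log2 value of the markers was 6.66, 7.69 and 6.78 in untreated and 6.65, 7.93 and 6.69 in LPS samples. The part of cell composition in the *Zfp36* values was not tested. With samples centred on the mean log2 value of the neutrophil markers, an alternative chosen after seeing the data, the log2 fold change of *Zfp36* was 1.00, and that of *Zc3h12a* was 2.98 with an adjusted p of 0.012.

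**Figure D2:**
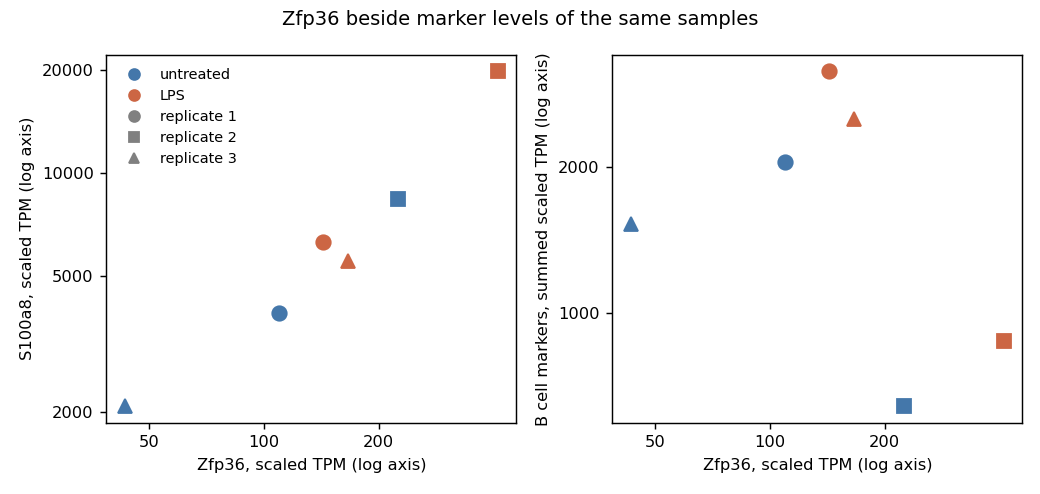
Scaled TPM of *Zfp36* (horizontal, log axis) against that of *S100a8* (left) and against the summed B cell markers (right), each point being 1 of the 6 samples, coloured by group and shaped by replicate. Replicate 2 of each group has the most *Zfp36* and *S100a8* and the fewest B cell markers of its group.

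*Zfp36* is known to bind its own mRNA, and its 774-base 3′ UTR held 3 copies of TATTTAT. Only 1.31% of genes with a 3′ UTR of similar length held as many, and 20.6% held any. They are printed with the heptamer in capitals.
Zfp36 3′ UTR bases 575 to 581: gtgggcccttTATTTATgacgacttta
Zfp36 3′ UTR bases 590 to 596: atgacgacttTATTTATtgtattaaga
Zfp36 3′ UTR bases 615 to 621: gattttatagTATTTATatatattggg
The promoter window of *Zfp36* held 1 match, a CArG box at positions -58 to -49 from the start, which is known as the site of serum response factor in immediate early genes.
Zfp36 CArG box: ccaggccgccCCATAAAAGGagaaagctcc

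*Zfp36l1* encodes a relative of tristetraprolin that binds the same elements (chr12:80154528-80160006, minus strand, GRCm39). Its scaled TPM were 13.2, 42.1 and 35.0 in untreated and 26.1, 18.6 and 25.9 in LPS replicates 1, 2 and 3. The LPS samples lay inside the range of the untreated ones. This gave a log2 fold change of -0.21 (SE 0.49, 95% interval -1.40 to 0.99, adjusted p = 0.83, limma). Its sign rested on 1 library, since it was 0.11 without untreated replicate 2. The 3′ UTR of 1835 bases held 3 copies of TATTTAT, as many as in *Zfp36*, with 4.42% of genes of similar length holding that many. The other 2 members of the family, *Zfp36l2* and *Zfp36l3*, were looked for and were not among the genes tested. Within samples, the log2 ratio of *Zfp36* to *Zfp36l1* was 3.05, 2.42 and 0.30 in untreated and 2.45, 4.46 and 2.68 in LPS samples. As listed, *Zfp36* exceeded its relative in each of the 6 samples, and the ratios of the groups overlapped. With values multiplied by the number of annotated transcripts, 2 for *Zfp36* and 3 for *Zfp36l1*, the order turned in untreated replicate 3, at 86.3 for *Zfp36* and 104.9 for *Zfp36l1*.

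*Rc3h1* encodes roquin-1 and *Rc3h2* encodes roquin-2, which bind stem loops and recruit deadenylation to mRNAs such as *Icos* and *Tnf*. *Rc3h1* (chr1:160733982-160802548, plus strand, GRCm39) had scaled TPM of 3.07, 3.28 and 1.12 in untreated and 4.38, 7.15 and 5.13 in LPS replicates 1, 2 and 3. All LPS samples were above all untreated samples, by a small margin. Its log2 fold change was 0.95 (SE 0.40, 95% interval -0.02 to 1.93, adjusted p = 0.31, limma), which passed neither limit. *Rc3h2* (chr2:37258909-37313172, minus strand, GRCm39) had scaled TPM of 2.10, 3.27 and 8.02 in untreated and 3.23, 4.18 and 3.15 in LPS samples. Here untreated replicate 3 stood above all others, and the groups overlapped. The log2 fold change was -0.13 (SE 0.46, 95% interval -1.26 to 1.00, adjusted p = 0.89, limma), and it was 0.31 without untreated replicate 3. The log2 ratio of *Rc3h1* to *Rc3h2* was 0.55, 0.0 and -2.84 in untreated and 0.44, 0.77 and 0.70 in LPS samples, so untreated replicate 3 was again the one apart.

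The 3′ UTRs of both roquin genes held stem loops of the form their products bind. *Rc3h1* held 4 in 7181 bases, with 5.09% of genes of similar length holding 4 or more, and *Rc3h2* held 2 in 6336 bases, with 30.9% holding 2 or more. Such loops are common in long 3′ UTRs, with at least 1 in 69.4% of genes with a length similar to *Rc3h1* and 65.1% of those similar to *Rc3h2*. Of the 4 in *Rc3h1*, 2 overlapped each other. A pair of loops was the same in both genes, and is printed with the loop in capitals. The first lies at bases 3864 to 3876 of *Rc3h1* and 1411 to 1423 of *Rc3h2*, and the second at bases 2002 to 2014 of *Rc3h1* and 69 to 81 of *Rc3h2*.
Rc3h1 and Rc3h2, first shared stem loop: acttcTGTgaagt
Rc3h1 and Rc3h2, second shared stem loop: atataTATtatat

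*Elavl1* encodes HuR, which binds AU-rich elements and stabilises the mRNA, in competition with tristetraprolin. It lies at chr8:4332576-4375489 on the minus strand (GRCm39). Its scaled TPM were 6.46, 4.39 and 3.18 in untreated and 9.65, 7.98 and 10.6 in LPS replicates 1, 2 and 3. All LPS samples were above all untreated samples. The means were 4.67 ± 1.66 and 9.39 ± 1.31 (SD, n = 3 each). *Elavl1* had a log2 fold change of 0.91 (SE 0.33, 95% interval 0.09 to 1.72), with an unadjusted p of 0.035 and an adjusted p of 0.24 in limma, so that it passed neither limit. With each sample scaled to an equal sum over protein-coding genes it was 0.49. *Elavl1* shares 403 bases of near-identical sequence with *Ccl25* on the opposite strand, and *Ccl25* reached at most 0.196 scaled TPM.

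The 3′ UTR of *Elavl1* held 9 copies of TATTTAT in 7024 bases. Of 564 genes with a 3′ UTR of similar length, 0.532% held as many and 76.4% held any. Most copies overlapped in 2 runs, printed with the runs in capitals.
Elavl1 3′ UTR run from base 3795: aaaatTATTTATTTATTTATTTATtttta
Elavl1 3′ UTR run from base 3833: gtttgttTATTTATTTATTTATtacttgt

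*Tia1* encodes a protein that binds AU-rich mRNAs, silences their translation and gathers in stress granules. It lies at chr6:86381127-86410387 on the plus strand (GRCm39). Its scaled TPM were 2.56, 0.190 and 0.407 in untreated and 0.465, 0.326 and 0.519 in LPS replicates 1, 2 and 3. Untreated replicate 1 was several-fold above the other 5 samples, which lay close together. Its log2 fold change was -0.34 (SE 0.46, 95% interval -1.47 to 0.79, adjusted p = 0.70, limma), and it was 0.15 without untreated replicate 1. These values lie near the added 1. *Tia1* also shares 353 bases with the overlapping gene model *Gm44790* on the same strand, which was at 0 in all 6 samples.

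**Figure D3:**
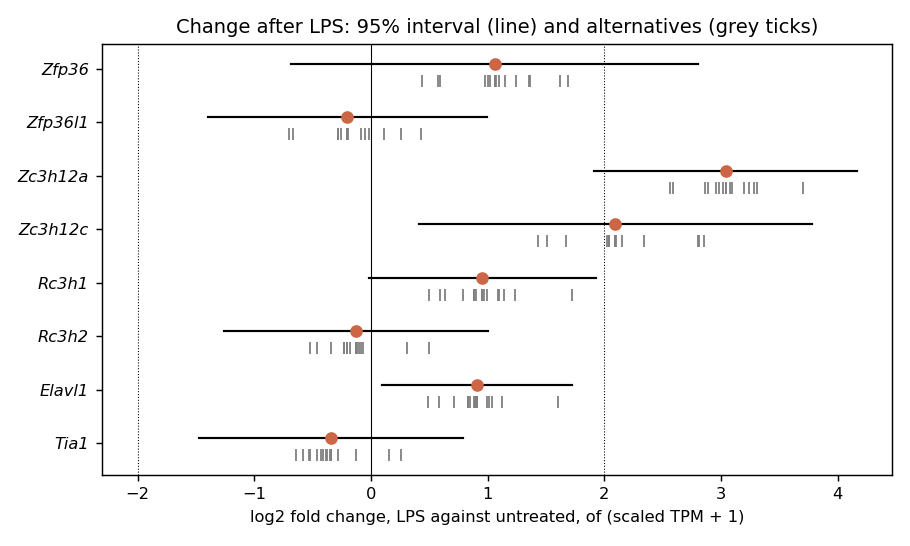
Log2 fold change (LPS minus untreated, of scaled TPM + 1) of each of the 8 genes, with a line for its 95% interval, grey ticks for the values under the alternative settings and dotted lines at the limits of -2 and 2. *Zc3h12a* lies past the limit at 3.04, while the intervals of *Zfp36*, *Zfp36l1*, *Rc3h1*, *Rc3h2* and *Tia1* include 0.

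Over the 8 genes, 5 had a positive and 3 a negative log2 fold change, with a median of 0.93. The median was 0.01 over all tested genes and 0.37 over the 6004 protein-coding genes with a mean of at least 1. In 4 of the 8, every LPS value was above every untreated value, which held for 13.1% of all tested genes and 24.5% of those protein-coding genes. None of the 8 was separated the other way, as 9.75% of tested genes were. An unadjusted p under 0.05 with a higher LPS value was found for 3 of the 8, against 10.3% of all tested genes and 20.5% of those protein-coding genes, and with a lower LPS value for none, against 6.66% of tested genes. The SD of the log2 values was larger in the untreated than in the LPS group for 8 of 8 genes, as it was for 82.8% of those protein-coding genes. Between the highest and the lowest sample of a group, the ratio was 1.02 to 2.88 among the LPS samples and 2.03 to 13.5 among the untreated ones.

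As listed, the order of the mean levels in untreated cells was *Zfp36*, *Zc3h12a*, *Zfp36l1*, *Zc3h12c*, *Elavl1*, *Rc3h2*, *Rc3h1* and *Tia1*. In LPS-treated cells *Zc3h12a* stood first, at 243.2 against 239.7 for *Zfp36*, and as listed these neighbours did not differ beyond their spread. *Zc3h12c* and *Zfp36l1* followed at 28.0 and 23.6, and their samples did not overlap, with 27.7 the lowest for *Zc3h12c* and 26.1 the highest for *Zfp36l1*. Comparison of levels between genes has a limit of its own, because the digits of the deposited values are those of a mean over each gene's transcripts. Of 661 values of at least 1 in untreated replicate 3 written with 14 or more digits, 82.3% became decimals of at most 6 places when multiplied by a whole number up to 30. A gene with many annotated transcripts is then listed lower than its summed TPM. *Elavl1* has 24 transcripts in GENCODE M39 and *Zfp36* has 2. Multiplied by these numbers, the untreated level was 112.2 for *Elavl1* and 251.5 for *Zfp36*, and *Elavl1* moved to the third place in both groups. The same step in LPS samples turned the order of *Zc3h12c* and *Zfp36l1*, at 56.1 and 70.6. It also set *Zc3h12a* at 1216 against 479.5 for *Zfp36*. The number of transcripts in the authors' own annotation may differ.

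Ratios between genes within a sample are free of the scaling of the sample. The log2 ratio of *Zc3h12a* to *Elavl1* was 1.19, 3.11 and 3.66 in untreated and 4.30, 5.21 and 4.53 in LPS replicates 1, 2 and 3. This was the one ratio to *Elavl1* in which the groups did not overlap, with a difference of means of 2.03. The log2 ratio of *Zfp36*, the destabiliser, to *Elavl1*, the stabiliser, was 4.08, 5.68 and 3.76 in untreated and 3.89, 5.69 and 3.98 in LPS samples. Its mean was 4.51 ± 1.03 without and 4.52 ± 1.01 with LPS (SD, n = 3 each), a difference of 0.01. The 2 regnases kept overlapping ratios, the log2 ratio of *Zc3h12a* to *Zc3h12c* being 3.09, 1.14 and 2.91 in untreated and 2.75, 3.41 and 3.12 in LPS samples.

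**Figure D4:**
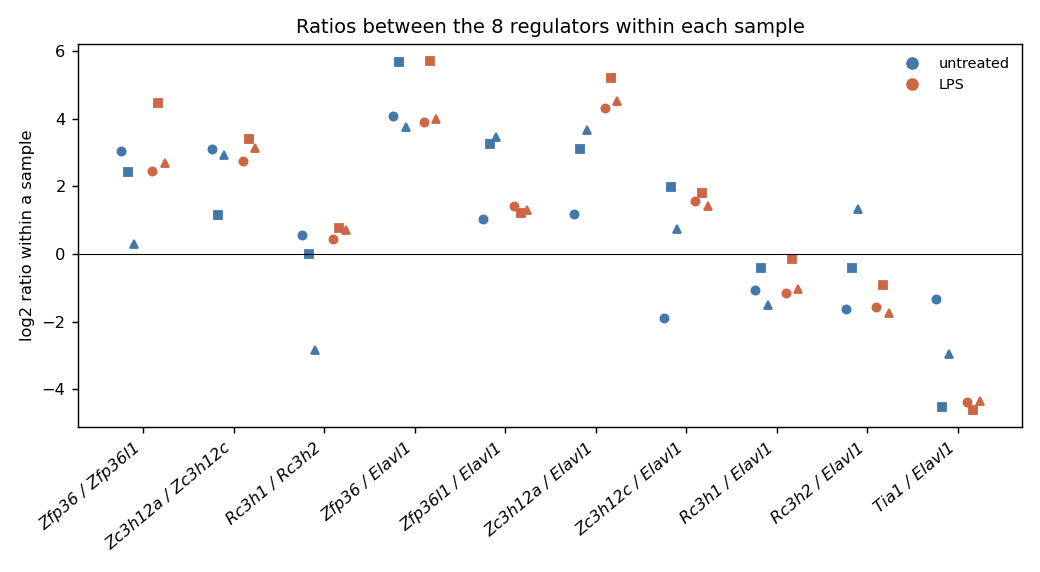
Log2 ratios between pairs of the 8 genes within each sample, untreated in blue and LPS in orange, with circle, square and triangle for replicates 1, 2 and 3. The ratio of *Zc3h12a* to *Elavl1* separates the groups, and that of *Zfp36* to *Elavl1* has nearly the same mean in both.

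The genes whose profile over the 6 samples was closest to that of *Zc3h12a*, measured as the root mean square difference of log2(scaled TPM + 1) after subtracting each gene's untreated mean, among 5997 protein-coding genes with a mean of at least 1,, included *Rab11fip1* (0.262) and *Pwp1* (0.296). *Rab11fip1*, which encodes a Rab11 effector of recycling endosomes, had mean scaled TPM of 13.4 untreated and 111 with LPS. Closest to *Zfp36* were *Rnf144a* (0.0616), *S100a8* (0.211) and *4930438A08Rik* (0.229). With 6 samples in 2 groups, such likeness is a description only.

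The machinery that these regulators call on was described from lists of known genes. For comparison with each list, 4.91% of protein-coding genes with a mean of at least 1 rose by the study's limits, and their median was 0.37. Of all tested genes, 1.31% fell by these limits. Of 17 deadenylation genes tested, none passed the study's limits, and the median log2 fold change was 0.49. *Cnot2*, a scaffold subunit of the CCR4-NOT deadenylase, had scaled TPM of 0.235, 0.248 and 0.271 in untreated and 2.58, 2.29 and 3.04 in LPS samples, a log2 fold change of 1.54 (adjusted p = 0.058, limma). *Cnot10* was the only deadenylation gene with a lower LPS value at an unadjusted p under 0.05, with a log2 fold change of -1.06 (adjusted p = 0.14). Of 19 genes of decapping and 5′ to 3′ decay, 2 rose by the study's limits and the median was 0.47. These were *Lsm3* and *Lsm6*, subunits of the ring that binds deadenylated ends. The ring subunits *Lsm1*, *Lsm4*, *Lsm5* and *Lsm7* passed neither limit, with log2 fold changes of 0.33, -0.27, 0.47 and 0.9. *Lsm3* went from 0.943, 0.736 and 0.747 in untreated to 10.6, 7.53 and 8.32 in LPS samples (log2 fold change 2.43, SE 0.29, adjusted p = 0.022, limma). *Xrn1*, the 5′ to 3′ exonuclease, had 3.03, 2.95 and 3.66 in untreated and 0.763, 0.633 and 1.10 in LPS samples, with a log2 fold change of -1.20 that did not pass the adjusted limit (adjusted p = 0.10). Of 14 genes of the RNA exosome and SKI complex, none passed either limit and the median was 0.30.

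Of 14 genes of nonsense-mediated decay, 1 fell at an adjusted p under 0.05, as 0.946% of all tested genes did. None passed the study's limits, and the median was 0.58. *Upf2*, a core adaptor of that pathway, had 30.4, 38.5 and 35.3 in untreated and 8.03, 10.7 and 8.21 in LPS samples (log2 fold change -1.84, SE 0.28, adjusted p = 0.040, limma). Of 14 stress granule genes none passed either limit, and 13 of the 14 had a positive log2 fold change with a median of 0.61, where 64.7% of protein-coding genes with a mean of at least 1 were positive. Of 19 other proteins that bind AU-rich elements none passed either limit, with a median of 0.54. At an unadjusted p under 0.05, 6 of the 19 were higher and 2 lower. Of protein-coding genes with a mean of at least 1, 20.5% were higher at this p, and of all tested genes 6.66% were lower. The highest was *Hnrnpab*, with 21.9, 4.06 and 27.7 in untreated and 122.4, 51.2 and 105.3 in LPS samples, a log2 fold change of 2.56 (adjusted p = 0.15, limma). *Ilf2* and *Hnrnpd*, which encodes AUF1, had log2 fold changes of 1.15 (adjusted p = 0.14) and 1.14 (adjusted p = 0.18). The lower ones were *Celf2* and *Rbm38*. *Celf2* had 4.88, 7.08 and 5.47 in untreated and 1.09, 1.06 and 1.32 in LPS samples, a log2 fold change of -1.65 (adjusted p = 0.053). *Rbm38* had 26.8, 58.6 and 47.1 in untreated and 14.6, 13.5 and 11.5 in LPS samples, a log2 fold change of -1.61 (adjusted p = 0.094). The groups of these 2 genes were fully separated, yet neither passed a limit.

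Of 7 other regnase-type nucleases and their opponents, 1 rose by the study's limits and the median was 0.50. *N4bp1*, a ribonuclease related to regnase-1, had 26.9, 4.65 and 20.3 in untreated and 61.5, 105 and 86.1 in LPS samples (log2 fold change 2.48, SE 0.65, adjusted p = 0.12, limma). *Zc3h12d*, which encodes regnase-4, had 9.90, 7.25 and 3.95 in untreated and 3.30, 2.50 and 2.77 in LPS samples, a log2 fold change of -0.99 that passed neither limit (adjusted p = 0.26). The 3 measured regnase genes thus had different values, with only *Zc3h12a* past a limit, and the differences between them were not tested.

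Of 19 tested kinases, phosphatases, adaptors and other proteins listed as acting on these regulators, 3 rose and 1 fell by the study's limits. Their median was 0.76, and no protease was among them. *Mapkapk2*, which encodes MK2, the kinase that phosphorylates tristetraprolin and so restrains it, had 169.9, 198.8 and 112.5 in untreated and 610.1, 879.5 and 639.6 in LPS samples (log2 fold change 2.16, SE 0.34, adjusted p = 0.043, limma). *Ikbke*, an IκB kinase relative, had 18.3, 42.5 and 9.89 in untreated and 158.6, 411.8 and 219.4 in LPS samples (log2 fold change 3.55, SE 0.62, adjusted p = 0.053). *Card9*, an adaptor of antifungal signalling, fell from 19.5, 37.3 and 35.0 to 1.74, 3.74 and 1.73 (log2 fold change -3.21, SE 0.41, adjusted p = 0.026). Each of these 3 genes was fully separated between the groups.

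Of 32 mRNAs listed as known targets of the 8 regulators, 23 were tested, and *Tnf* was not among them. Of these 23, 9 rose by the study's limits, none fell, and all had a positive log2 fold change, with a median of 1.88. Of the expressed protein-coding genes, 4.91% rose by these limits and 64.7% had a positive log2 fold change. The list includes *Zfp36* and *Zc3h12a* themselves, and the level of an mRNA does not separate its synthesis from its decay. *Ptgs2*, the inducible cyclooxygenase with a dense AU-rich 3′ UTR, had 10.6, 12.1 and 1.93 in untreated and 229.5, 86.6 and 178.2 in LPS samples (log2 fold change 4.33, SE 0.70, adjusted p = 0.046, limma). The chemokines *Cxcl1* and *Cxcl2* had log2 fold changes of 4.90 (adjusted p = 0.033) and 3.66 (adjusted p = 0.026). Other known targets did not pass, among them *Ccl3* at 0.60 and *Mcl1* at 0.85. *Ptgs2*, *Ccl3* and *Mcl1* were named after their values were seen.

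**Figure D5:**
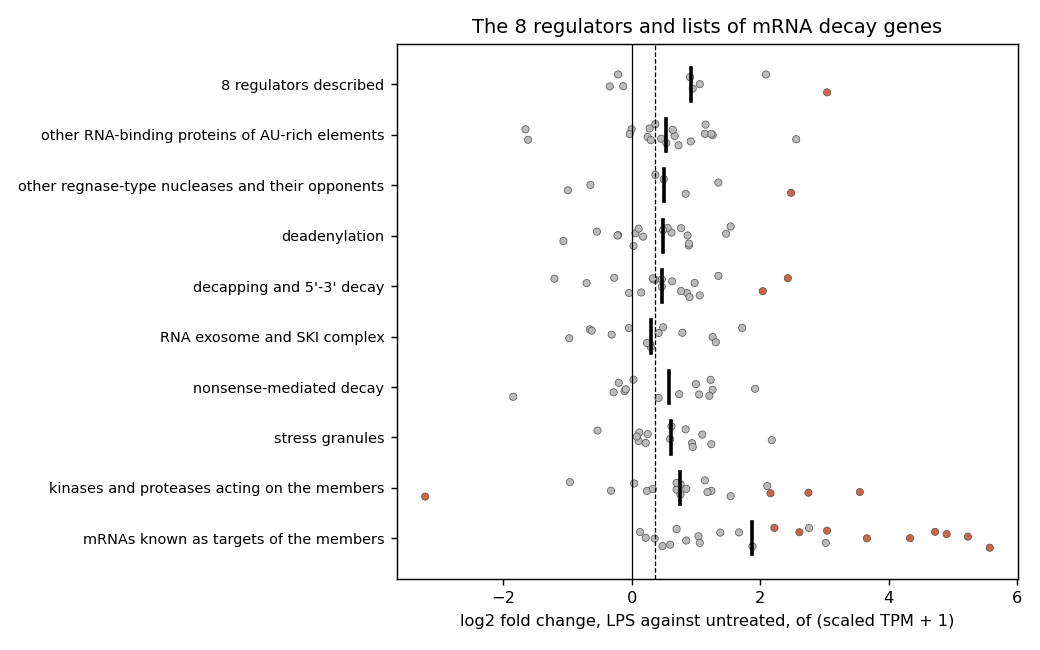
Log2 fold change (LPS minus untreated, of scaled TPM + 1) of each tested gene in the 8 regulators and the lists of mRNA decay genes, 1 dot per gene, orange where past the study's limits, with a thick bar at each list's median. The solid line marks the median of 0.01 over all tested genes. The dashed line marks the median of 0.37 over protein-coding genes with a mean of at least 1. The target list has the highest median at 1.88.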

How the data were processed

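RNA of 6 samples was measured by bulk RNA sequencing. The submitters' processing notes name fastp, STAR and kallisto with the builds GRCm39 and mm10, and no versions. The authors deposited a single table of normalised values per gene, described as counts but not whole. It was read as a scaled TPM, namely the mean of a gene's transcripts after a sample-wide rescaling. The digits bear on the mean over transcripts, and whether the values are corrected for length was not tested. The authors used edgeR for normalisation and limma-voom for their tests. Each column name matched 1 sample, and 0 other sample columns were present. Read counts were not used here.

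From the deposited TPM, log2(value + 1) was taken for the 23049 genes with any value above 0, and LPS was compared with untreated in limma 3.58.1 (R 4.3.3) with a trended empirical Bayes fit and Benjamini-Hochberg adjustment over all of them. The limits were an unadjusted p under 0.01 with an absolute log2 fold change over 2, from the study's methods, and an adjusted p under 0.05. The fit was tested on simulated data. Genes were named as the 8 regulators, up to 3 with the smallest unadjusted p under 0.05 in each direction within a list (not all are printed), the nearest profiles (1 is not reported here) and *Cgas*. Alternatives changed the pseudocount, filter, scaling, model, block and libraries. The 8 genes and the lists were chosen with earlier results of these data known. Positions and 3′ UTRs came from GENCODE M39, near-identical sequence from blastn 2.17.0 (at least 95% over 150 bases) and promoter windows from RefSeq.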

Additional observations from a re-analysis of the deposited data

How the results depend on the processing

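With 3 samples per group, unknown depth and a large shift in the share of the summed values held by protein-coding genes, only large differences can be told from the spread. *Zc3h12a* passed the study's limits under all 18 alternatives, with log2 fold changes of 2.56 to 3.70 and adjusted p of 0.0045 to 0.17, under 0.05 in 10 of them. *Zc3h12c* ranged from 1.43 to 2.85 and passed under 3 of 18, at 2.80, 2.81 and 2.85. The number of the 8 genes that rose was 1 in the main comparison, 2 under voom (where 6.73% of all genes rose, against 1.69%) and 1 to 2 when libraries were left out (2 without untreated replicate 2, and 2 without replicate 2 of both groups, an alternative chosen after seeing the data). The number with an adjusted p under 0.05 was 1 in the main comparison, 4 under voom (*Zc3h12a*, *Zc3h12c*, *Rc3h1* and *Elavl1*, where 40.8% of all genes passed, against 1.84%), 0 with no filter and 0 to 1 when libraries were left out. Replicate numbers were not taken as pairs, since deviations of same-numbered samples correlated at 0.102, 0.22 and 0.0925, although each sample correlated best with its own number. With the replicate block the number that rose was 1, the number with an adjusted p under 0.05 was 0, and *Zc3h12a* had an adjusted p of 0.082. Signs turned for 3 genes with no call. Voom had a median log2 fold change of 0.67 over all tested genes, against 0.01 in the main comparison. Over expressed protein-coding genes its median was 1.1, against 0.37. Under voom the log2 fold change was 0.43 for *Zfp36l1*, 0.50 for *Rc3h2* and 0.26 for *Tia1*, each positive but below both voom medians. When 1 library was left out it ranged from -0.64 to 0.15 for *Tia1* (positive without untreated replicate 1), from -0.70 to 0.11 for *Zfp36l1* (positive without untreated replicate 2) and from -0.46 to 0.31 for *Rc3h2* (positive without untreated replicate 3), and without replicate 2 of both groups it was 0.26 for *Zfp36l1*. *Tia1* had no value with a mean of at least 1. Equal sums over protein-coding genes moved the median log2 fold change of expressed protein-coding genes from 0.37 to 0.02 and gave 2.56 for *Zc3h12a*, 1.67 for *Zc3h12c*, 0.59 for *Rc3h1*, 0.57 for *Zfp36* and 0.49 for *Elavl1*. The cause of these changes was not tested.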
